A study of Mus musculus with 6 samples.

Results

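The 7 genes described here mark the zebrin stripes of the cerebellar cortex, and their levels were read in cerebellum RNA of 6 mice. They were chosen by name, with 5 genes of zebrin-positive stripes (Aldoc, Plcb3, Slc1a6, Gabbr2 and Kctd12) and 2 of zebrin-negative stripes (Plcb4 and Ebf2). All 7 passed the filter on low counts, among 16851 genes tested and 46983 listed. The groups were 3 libraries labelled Slc7a5-KO (Tie2-Cre, Slc7a5 fl/fl) and 3 labelled WT (Tie2-Cre, Slc7a5 fl/+), each from its own C57BL/6J mouse at postnatal day 60. Animals of both groups thus carried the Tie2-Cre transgene, whose promoter is active in endothelial and blood cells, and the WT animals also had a floxed allele. Slc7a5 encodes a transporter of large neutral amino acids, and the study concerns its role at the barrier between blood and brain.

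Purkinje cells are the output neurons of the cerebellar cortex, and they look alike but fall into parasagittal stripes that differ in gene expression. Zebrin-positive stripes are named for the zebrin II antigen, which is aldolase C itself, and zebrin-negative stripes lie between them. The stripes differ in their share of the cortex from lobule to lobule, with zebrin-negative stripes wide in the anterior vermis and zebrin-positive cells filling the vestibular lobules. In whole-cerebellum RNA the balance of the stripe genes can therefore shift with the regions sampled. In such bulk samples, fewer cells of a type and less RNA per cell cannot be told apart.

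The libraries held 31.1, 27.3 and 13.4 M gene reads (M, mega) for replicates 1 to 3 labelled Slc7a5-KO and 34.2, 29.6 and 27.7 M for WT replicates 1 to 3. Levels are given as CPM, counts per M reads, scaled between libraries by the TMM method. Defining cerebellar transcripts were present in every library, with Pcp2, a Purkinje cell transcript, at 369 to 472 CPM in libraries labelled Slc7a5-KO and 407 to 623 CPM in WT libraries. Gabra6, a GABA-A receptor subunit of granule neurons, stood at 442 to 816 CPM in libraries labelled Slc7a5-KO and 648 to 1076 CPM in WT libraries. Slc7a5 was at 164, 59.4 and 118 CPM in libraries labelled Slc7a5-KO and 72.0, 66.3 and 43.2 CPM in WT libraries (log2 fold change 0.91 ± 0.42, SE, edgeR adjusted p = 0.84). The count was thus not lower under the Slc7a5-KO label. In whole-tissue RNA it also includes cells in which Tie2-Cre is not active, so it neither bears out nor refutes the labels. All directions given here follow the labels. Choroid plexus transcripts set a library apart, with a summed level of 30.2 CPM in Slc7a5-KO replicate 2 and 2341 to 5627 CPM in the other 5 libraries.

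Upstream sequence is shown for 3 of the genes, since Plcb3 and Plcb4 are paralogs of opposite stripes and Slc1a6 held the only match to the binding core of the EBF factors, to which the member Ebf2 belongs. Of the 7 genes, 6 had a promoter in the RefSeq table (build GRCm38.p6). For Plcb3 and Plcb4 the start used lies inside the gene span given below, which comes from another annotation. The 150 bases before the start are given 5′ to 3′ on the gene's strand, with matches in capitals. The windows are chr19:6969815-6969964 on the minus strand for Plcb3, chr10:78780346-78780495 on the plus strand for Slc1a6 and chr2:135659397-135659546 on the plus strand for Plcb4, at the first of its listed starts.
Plcb3: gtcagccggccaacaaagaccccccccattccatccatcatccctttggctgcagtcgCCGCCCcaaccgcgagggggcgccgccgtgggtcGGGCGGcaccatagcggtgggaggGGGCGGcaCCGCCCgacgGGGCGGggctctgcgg
Slc1a6: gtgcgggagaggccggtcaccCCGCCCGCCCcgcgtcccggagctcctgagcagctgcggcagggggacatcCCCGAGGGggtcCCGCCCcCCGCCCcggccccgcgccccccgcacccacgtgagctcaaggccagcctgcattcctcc
Plcb4: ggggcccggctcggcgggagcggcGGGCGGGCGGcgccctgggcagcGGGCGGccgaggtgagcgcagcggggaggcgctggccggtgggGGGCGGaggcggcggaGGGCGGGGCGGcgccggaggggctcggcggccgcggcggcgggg
The capitals mark CCCNNGGG, the EBF core, whose pattern reads the same on both strands, and the GC box GGGCGG, searched on both strands (CCGCCC). Overlapping matches run together, and the 2 motifs did not overlap each other in these windows. In the 250 bases before the start, Slc1a6 held 1 match to CCCNNGGG, 78 bases before it, and 11.8% of all 32851 promoters in the table held one. The GC box was counted 5 times for Plcb3, 6 times for Slc1a6 and 7 times for Plcb4, and 32.7% of all promoters held at least 1. A match is a description of these letters and not a measured binding site.

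The stripe genes covered a wide range of levels. Per kilobase of exon, which makes genes comparable, Aldoc stood highest at a mean level of 337 CPM per kb over the 6 animals (277 to 430). Plcb4 followed at 39.4 (35.2 to 44.2), Gabbr2 at 37.9 (37.3 to 38.8) and Slc1a6 at 35.6 (25.1 to 54.8), and these 3 overlapped across animals. Kctd12 stood at 15.1 (7.20 to 21.2), Plcb3 at 5.23 (3.75 to 6.71) and Ebf2 at 1.82 CPM per kb (1.29 to 2.31), and the ranges of these did not overlap each other. On this scale Aldoc was above 99.7% of the genes tested and Ebf2 above 35.5%.

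The genes also differed in how steady they were between animals. Gabbr2 varied least, with a ratio of 1.04 between its highest and lowest library, against a median of 1.47 over 9883 genes with a mean of at least 10 CPM. Kctd12 varied most, with a ratio of 2.94, followed by Slc1a6 with 2.18. Plcb3 and Ebf2 each had 1.79, Aldoc 1.55 and Plcb4 1.26.

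**Figure D1:**
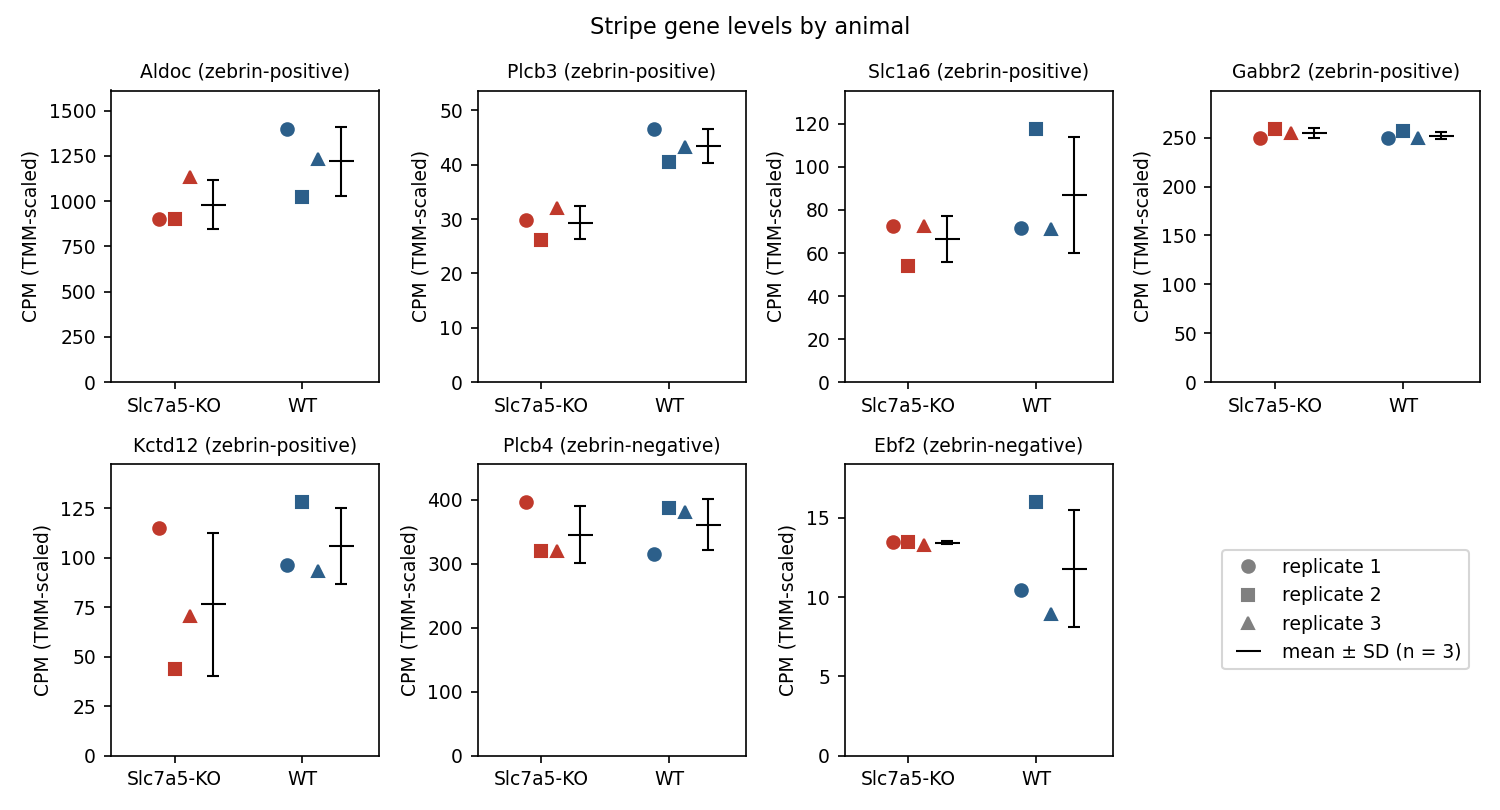
Levels of the 7 stripe genes in CPM (TMM-scaled, linear axes from 0), 1 symbol per animal, with the mean ± SD of 3 animals per group beside them. Plcb3 is the gene whose groups are fully apart, at 26.1 to 32.1 CPM in libraries labelled Slc7a5-KO and 40.5 to 46.7 CPM in WT libraries, and Gabbr2 is nearly flat.

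No stripe gene passed a false discovery rate of 0.05 between the groups. By edgeR's quasi-likelihood test with Benjamini-Hochberg adjustment over all genes, 0 of the 7 were called, against 0.0475% of all genes tested (8 genes, all higher in libraries labelled Slc7a5-KO). DESeq2 called 0 of the 7 and 0.339% of its genes, and limma-voom called 0 of the 7 and 0.0593% of its genes. At an unadjusted p under 0.05 edgeR gave 2 of the 7, Plcb3 and Aldoc, against 6.22% of all genes. Of the 5 zebrin-positive genes, 4 had a log2 fold change below 0, with a median of -0.39, where 49.7% of all genes tested were below 0 and the median over them was 0.0022. The zebrin-negative pair had a median of 0.06, with Plcb4 below 0 and Ebf2 above.

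Aldoc, the glycolytic enzyme aldolase C, is the antigen that defines the stripes, and astrocytes express it as well. Aldoc (ENSMUSG00000017390.15, GRCm38 chromosome 11, 78322968 to 78327781, plus strand) stood at 904, 903 and 1135 CPM in libraries labelled Slc7a5-KO and at 1402, 1024 and 1233 CPM in WT libraries. Slc7a5-KO replicate 3 was above WT replicate 2, so the groups overlapped. The means were 981 ± 134 and 1220 ± 189 CPM (SD, n = 3 each), with a log2 fold change of -0.31 ± 0.15 (SE, edgeR adjusted p = 0.80). Leaving out WT replicate 1 gave -0.20, and leaving out Slc7a5-KO replicate 3 gave -0.43. Aldoa, the widespread aldolase, was the more abundant of the family at 485 CPM per kb, and had a log2 fold change of 0.03 ± 0.17.

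Slc1a6, known as EAAT4, takes up glutamate at Purkinje cell synapses and is stronger in zebrin-positive cells. Slc1a6 (ENSMUSG00000005357.8, chromosome 10, 78780496 to 78814765, plus strand) stood at 72.7, 54.0 and 72.3 CPM in libraries labelled Slc7a5-KO and at 71.8, 118 and 71.2 CPM in WT libraries. A single animal, WT replicate 2, was high and Slc7a5-KO replicate 2 was low, while the other 4 lay within 71.2 to 72.7 CPM. The log2 fold change of -0.39 ± 0.19 (SE, edgeR adjusted p = 0.81) was -0.11 without WT replicate 2. The glial glutamate transporters Slc1a3 and Slc1a2 had -0.23 ± 0.17 and -0.07 ± 0.15, and the neuronal Slc1a1 had 0.28 ± 0.18, none past the threshold. Per kilobase the glial pair stood at 120 and 128 CPM, above Slc1a6.

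Plcb3 and Plcb4 are phospholipases that act behind glutamate receptors in Purkinje cells, Plcb3 in zebrin-positive and Plcb4 in zebrin-negative stripes. Plcb3 (ENSMUSG00000024960.8, chromosome 19, 6952325 to 6976470, minus strand) stood at 29.8, 26.1 and 32.1 CPM in libraries labelled Slc7a5-KO and at 46.7, 40.5 and 43.3 CPM in WT libraries. All 3 libraries labelled Slc7a5-KO were below all 3 WT libraries. The means were 29.3 ± 3.00 and 43.5 ± 3.11 CPM (SD, n = 3 each). The log2 fold change was -0.57 ± 0.16 (SE), with a 95% interval of -0.91 to -0.23, but the gene ranked 92nd by p and did not pass over all genes (edgeR adjusted p = 0.46). It was the only 1 of the 7 whose groups did not overlap, where 11.5% of all genes tested did not overlap and 5.54% were apart and lower.

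In the authors' deposited table, Plcb3 was listed at -0.58 (log2, unshrunken) with 0.0148 as its adjusted p. It was the only 1 of the 7 genes with an adjusted p under 0.05 in the authors' deposited table, which called 0.9% of the genes with an adjusted p and 0.275% as lower. The adjusted p of DESeq2 as run here was 0.13 and that of limma-voom 0.36, so the call depended on the fit. The exons of Plcb3 overlap those of Ppp1r14b on the opposite strand. Reads on that strand were 0.606% of the reads at Plcb3, and with the strands counted together the log2 fold change was -0.58.

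Plcb4 differed between the groups by less than its standard error, and per kilobase of exon it was more abundant than Plcb3 in every library. Plcb4 (ENSMUSG00000039943.16, chromosome 2, 135659011 to 136014593, plus strand) stood at 397, 320 and 320 CPM in libraries labelled Slc7a5-KO and at 315, 387 and 381 CPM in WT libraries. Slc7a5-KO replicate 1 was the highest and WT replicate 1 the lowest, so the groups overlapped fully. Its log2 fold change was -0.06 ± 0.14 (SE, edgeR adjusted p = 0.99), with a 95% interval of -0.35 to 0.22. The ratio of Plcb3 to Plcb4 reads, taken per animal, was 0.0753, 0.0815 and 0.1001 in libraries labelled Slc7a5-KO and 0.148, 0.105 and 0.114 in WT libraries. The groups stood apart on that ratio by the narrow gap between Slc7a5-KO replicate 3 and WT replicate 2. Of the paralogs, Plcb1, a form of forebrain neurons, had 0.18 ± 0.15, and Plcb2 was at 0.243 CPM per kb.

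Gabbr2 and Kctd12 belong to the GABA-B receptor, Gabbr2 as a receptor subunit and Kctd12 as an auxiliary subunit that speeds its desensitization. Gabbr2 (ENSMUSG00000039809.10, chromosome 4, 46662305 to 46991873, minus strand) stood at 249.95, 259 and 255 CPM in libraries labelled Slc7a5-KO and at 249.6, 256 and 249.9 CPM in WT libraries. All 6 animals lay close together and the groups overlapped. Its log2 fold change was 0.02 ± 0.12 (SE, edgeR adjusted p = 0.999), with a 95% interval of -0.23 to 0.26, so a change larger than about that size is outside the interval. Gabbr1, the partner subunit, had -0.07 ± 0.13.

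Kctd12 was the least steady of the 7. Kctd12 (ENSMUSG00000098557.1, chromosome 14, 102976581 to 102982637, minus strand) stood at 115, 43.6 and 70.7 CPM in libraries labelled Slc7a5-KO and at 96.2, 128 and 93.4 CPM in WT libraries. Slc7a5-KO replicate 1 was above 2 of the WT animals, and Slc7a5-KO replicates 2 and 3 were below all of them. The log2 fold change was -0.47 ± 0.35 (SE, edgeR adjusted p = 0.93), with a 95% interval of -1.31 to 0.37. Leaving out Slc7a5-KO replicate 1 gave -0.90, and leaving out Slc7a5-KO replicate 2 gave -0.19. Of the related auxiliary subunits, Kctd16 was low and stood at 5.63, 6.09 and 7.72 CPM in libraries labelled Slc7a5-KO and at 3.62, 2.85 and 3.11 CPM in WT libraries. It had a log2 fold change of 1.01 ± 0.35 (SE, edgeR adjusted p = 0.63), and Kctd8 had -0.10 ± 0.22, neither past the threshold.

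Ebf2 is a transcription factor of zebrin-negative Purkinje cells, and mice that lack it show zebrin-positive genes in stripes that normally lack them. Ebf2 (ENSMUSG00000022053.13, chromosome 14, 67233292 to 67430918, plus strand) stood at 13.5, 13.5 and 13.3 CPM in libraries labelled Slc7a5-KO and at 10.5, 16.0 and 8.94 CPM in WT libraries. The 3 libraries labelled Slc7a5-KO were nearly equal and lay inside the WT range, whose top was WT replicate 2. The log2 fold change was 0.19 ± 0.26 (SE, edgeR adjusted p = 0.97), 0.47 without WT replicate 2 and 0.02 without WT replicate 3. The counts behind it were the lowest of the 7, from 181 to 443 reads a library. Ebf1, Ebf3 and Ebf4, factors of the same family, had -0.20 ± 0.16, 0.33 ± 0.19 and 0.31 ± 0.25, none past the threshold.

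Markers of Purkinje cells as a whole ran in the same direction as the zebrin-positive genes. Of the 12 markers, 11 had a log2 fold change below 0 with a median of -0.41, against 0.0022 over all genes, and 0 passed the threshold by edgeR. Their summed level was 4222 to 6159 CPM in libraries labelled Slc7a5-KO and 6036 to 7320 CPM in WT libraries, and no marker was at 0. The 2 with the smallest p were Rgs8, a regulator of G-protein signalling (-0.57 ± 0.13, SE, edgeR adjusted p = 0.22), and Icmt, an enzyme of protein methylation (-0.48 ± 0.12, edgeR adjusted p = 0.29). The part of this in the stripe gene values was not tested.

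The stripe genes were also read relative to the mean of the 12 Purkinje markers. This is a level per unit of Purkinje cell RNA only for a gene confined to those cells, and Aldoc, for one, is also a gene of glia. On that log2 scale Ebf2 stood at -4.27, -3.79 and -4.06 in libraries labelled Slc7a5-KO and at -4.68, -4.32 and -4.86 in WT libraries. It was the only member apart on this scale, higher in libraries labelled Slc7a5-KO by 0.58 ± 0.21 (SE, 2-sided exact permutation p = 0.1, the smallest possible with 3 against 3). The separation depended on the markers. Against Pcp2 alone the groups were also apart, with a difference of 0.42 (exact permutation p = 0.1). Without the 5 markers of smallest p (Rgs8, Icmt, Pvalb, Homer3 and Calb1), Slc7a5-KO replicate 1 stood at -4.05, below WT replicate 2 at -3.98, so the groups overlapped, and the difference was 0.46 (exact permutation p = 0.2). Plcb4 differed by 0.28 ± 0.12 and Gabbr2 by 0.36 ± 0.17, each with an exact permutation p of 0.2. The mean of the markers itself differed by -0.35 ± 0.17 (SE), and it enters each of these differences with its sign turned. For Gabbr2, whose own log2 fold change was 0.02, it makes up nearly the whole value. Plcb3 differed by -0.22 ± 0.18 (exact permutation p = 0.3) and Kctd12 by -0.22 ± 0.27 (exact permutation p = 0.5). Leaving out Slc7a5-KO replicate 1 gave -0.12 for Plcb3, and leaving out WT replicates 1 or 2 in turn gave -0.14 and -0.36. Gabbr2 was at 0.23 once Slc7a5-KO replicate 2 was dropped. Slc1a6 differed by -0.01 ± 0.16 and Aldoc by 0.04 ± 0.28, with exact permutation p of 1 and 0.8. With 3 animals per group none of these 7 exact tests could pass the threshold, so the p-values say little of which genes differ.

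**Figure D2:**
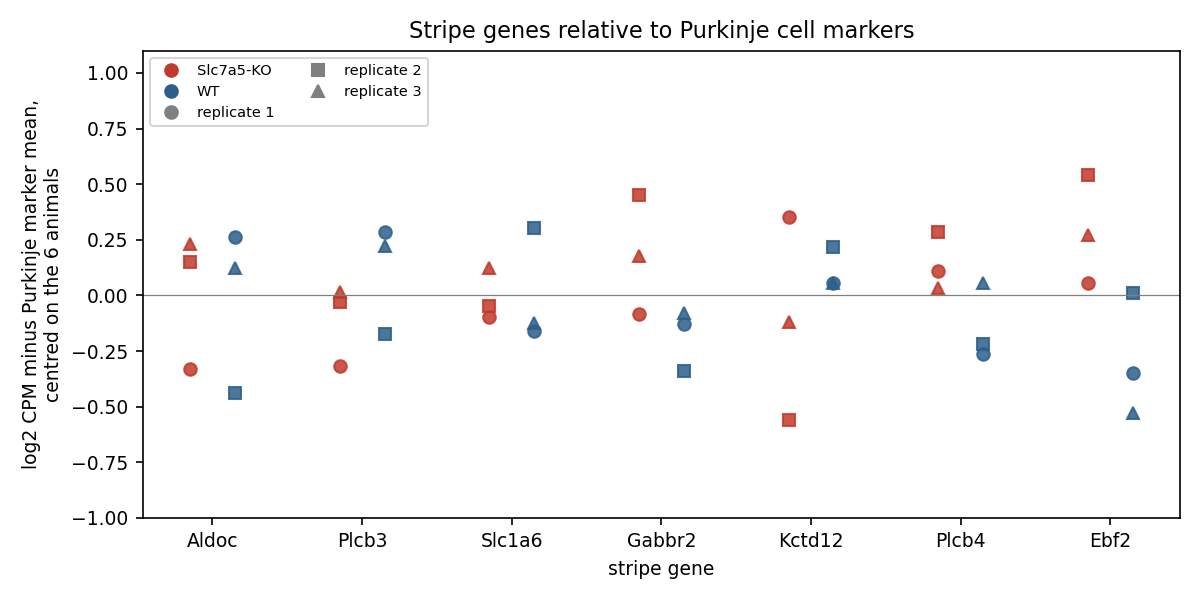
Each stripe gene's log2 CPM minus the mean of 12 Purkinje cell markers, centred on the 6 animals, with libraries labelled Slc7a5-KO left of WT libraries and replicates by symbol. With these 12 markers the groups are apart for Ebf2 and overlap for the other 6 genes, and without the 5 markers of smallest p they overlap for Ebf2 too.

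Aldoc is also a gene of glia, and markers of Bergmann glia and astrocytes were read beside it. Of 10 such markers, 7 had a log2 fold change below 0 with a median of -0.14, and 0 passed the threshold by edgeR. Their summed level was 4375 to 4498 CPM in libraries labelled Slc7a5-KO and 4636 to 5155 CPM in WT libraries, with no marker at 0. Gfap, the intermediate filament of astrocytes, had 0.55 ± 0.14 (SE, edgeR adjusted p = 0.31) and S100b, a calcium-binding protein of astrocytes, -0.38 ± 0.13 (edgeR adjusted p = 0.64). Relative to the mean of these markers, Aldoc was at 1.58, 1.63 and 1.96 in libraries labelled Slc7a5-KO and at 2.12, 1.65 and 2.07 in WT libraries. That difference was -0.22 ± 0.19 (SE, 2-sided exact permutation p = 0.2), where the Purkinje scale gave 0.04.

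The genes were combined per animal into a zebrin balance, the mean centred log2 CPM of the 5 zebrin-positive genes minus that of the 2 zebrin-negative genes. Its members are not all confined to Purkinje cells, as given for Aldoc, so RNA of other cells can enter the balance. The balance stood at -0.18, -0.42 and -0.07 in libraries labelled Slc7a5-KO and at 0.37, 0.02 and 0.28 in WT libraries. All 3 libraries labelled Slc7a5-KO were below all 3 WT libraries, with the narrowest gap between Slc7a5-KO replicate 3 and WT replicate 2. The group means were -0.22 ± 0.18 and 0.22 ± 0.18 (SD, n = 3 each), a difference of -0.44 ± 0.15 (SE). No p is given, since the members were chosen with earlier results known. The zebrin-positive side differed by -0.36 ± 0.13 and the zebrin-negative side by 0.08 ± 0.16.

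The balance was farthest from 0 in WT replicates 1 and 3 and in Slc7a5-KO replicate 2. In WT replicates 1 and 3 the zebrin-negative genes were low, at -0.20 and -0.18, while the zebrin-positive genes were at 0.17 and 0.10. In WT replicate 2 both sides were high, at 0.27 and 0.25, and so was the Purkinje score, at 0.36. In Slc7a5-KO replicate 2 the zebrin-positive genes were at -0.43 and the Purkinje score at -0.42, while the zebrin-negative genes were at -0.01. Leaving out Slc7a5-KO replicate 2 gave a difference in balance of -0.34, and leaving out WT replicate 2 gave -0.54. Dropping Ebf2 from the members gave -0.30, and the groups then overlapped, with Slc7a5-KO replicate 3 above WT replicate 3. Dropping Aldoc gave -0.45. The other members were not dropped in turn, so the separation of the balance may depend on single genes.

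**Figure D3:**
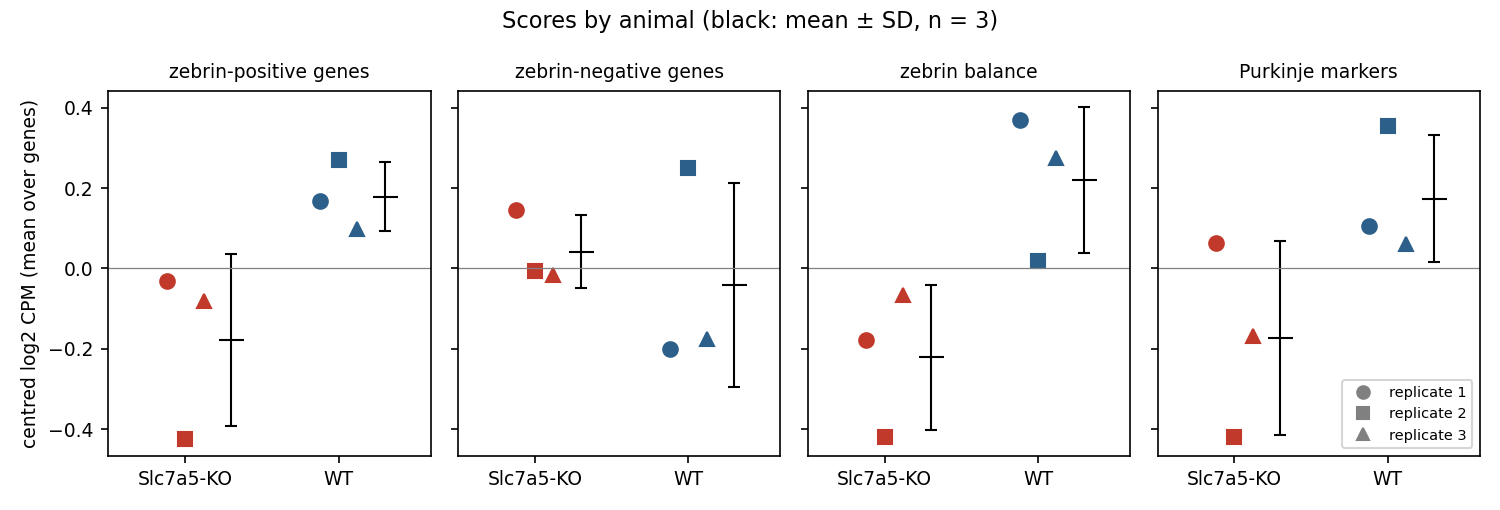
Per-animal scores, in mean centred log2 CPM, of the zebrin-positive genes, the zebrin-negative genes, their difference (zebrin balance) and the Purkinje markers, with the mean ± SD of 3 animals in black. The balance and the zebrin-positive score are below 0 in all 3 libraries labelled Slc7a5-KO and above 0 in all 3 WT libraries. The zebrin-negative scores overlap between the groups. The Purkinje scores overlap only narrowly, with Slc7a5-KO replicate 1 at 0.064 and WT replicate 3 at 0.061.

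Other genes linked to the stripes were read from a list. Of 7 such genes, all had a log2 fold change below 0 with a median of -0.29, and 0 passed the threshold by edgeR. Of all genes tested, 49.7% were below 0. The list was not split by stripe type, and its direction was not set against the zebrin balance. Prkcd, a protein kinase C form, had -0.31 ± 0.25, Nefh, the heavy neurofilament, -0.36 ± 0.32, and Ncs1, a calcium sensor, -0.10 ± 0.15. Nefh is also counted below among the markers of cerebellar nuclei and brainstem. Sphk1, a sphingosine kinase, and Hspb1, a small heat shock protein, were low, at 4.77 to 6.70 CPM and 1.62 to 3.39 CPM over the 6 libraries.

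The genes with the most similar pattern over the 6 animals were sought by the root mean square difference of centred log2 CPM, among 9882 other genes of at least 10 CPM. For Slc1a6 the nearest was Vamp8, at 0.0786, where Slc1a6 itself spread by 0.332. For Plcb3 they were Grk5 and B3galt2, at 0.0994 and 0.108 against a spread of 0.303. For Aldoc they were Wdsub1 and Chml (0.0445 and 0.061), for Kctd12 Nrep and Ogn (0.145 and 0.16) and for Ebf2 Gm5148 and Snrnp40 (0.0367 and 0.057). For Plcb4 they were Tspan9 and Tox4 (0.0338 and 0.0387), and for Gabbr2 Inpp5e and Gna11 (0.0197 and 0.0198), hardly nearer than the spread of Gabbr2 itself (0.0212). With 6 animals and so many genes, close matches arise easily, and this is a description.

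Tissue from outside the cerebellar cortex varied between the dissections. Hindbrain Hox genes, which mark brainstem, summed to 2.17, 11.96 and 3.16 CPM in Slc7a5-KO replicates 1 to 3 and to 25.0, 2.27 and 9.31 CPM in WT replicates 1 to 3. Markers of cerebellar nuclei and brainstem summed to 555, 1216 and 721 CPM in Slc7a5-KO replicates 1 to 3 and to 1127, 742 and 996 CPM in WT replicates 1 to 3. On both lists Slc7a5-KO replicate 2 and WT replicates 1 and 3 were the high libraries. Of the 9 Hox genes tested 0 were called and the median log2 fold change was -1.10, with 9 of 9 below 0, and of the 6 nuclear markers 0 were called with a median of 0.02.

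The split also followed sex, which was read from Xist and Y-linked genes since the labels do not give it. The 3 males were Slc7a5-KO replicate 2 and WT replicates 1 and 3, with Hox sums of 9.31 to 25.0 CPM, and the 3 females had 2.17 to 3.16 CPM. Sex and the share of brainstem transcripts cannot be told apart in these 6 animals. The zebrin-negative score was -0.01 in the male labelled Slc7a5-KO and -0.20 and -0.18 in the WT males, and it was 0.15 and -0.02 in the females labelled Slc7a5-KO and 0.25 in the WT female. The sexes overlapped on it, since the male labelled Slc7a5-KO was above Slc7a5-KO replicate 3, a female. The zebrin balance was -0.42 in the male labelled Slc7a5-KO and 0.37 and 0.28 in the WT males. Among the females it was -0.18 and -0.07 under the Slc7a5-KO label and 0.02 in the WT animal, a smaller difference than among the males. Aldoc averaged 1020 CPM in the 2 females labelled Slc7a5-KO and 1024 CPM in the WT female, against 903 CPM in the male labelled Slc7a5-KO and a mean of 1317 CPM in the 2 WT males. Plcb3 averaged 31.0 CPM in the 2 females labelled Slc7a5-KO and stood at 40.5 CPM in the WT female, and it was at 26.1 CPM in the male labelled Slc7a5-KO and averaged 45.0 CPM in the 2 WT males. With a sex term the log2 fold change of Plcb3 was -0.59, that of Slc1a6 -0.55 and that of Kctd12 -0.79, and none passed (edgeR adjusted p = 0.36, 0.21 and 0.21).

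Unipolar brush cells, excitatory interneurons that gather in the zebrin-positive vestibular lobules, were read by 4 markers. Of these, 1 was above 0 and 3 below, and 0 passed the threshold by edgeR. The groups did not overlap for 2 of the 4, Lmx1a and Calb2, where 11.5% of all genes tested did not overlap. Lmx1a, a transcription factor, was low and stood at 1.61, 0.449 and 1.103 CPM in libraries labelled Slc7a5-KO and at 2.80, 2.85 and 3.87 CPM in WT libraries (log2 fold change -1.58 ± 0.60, SE, edgeR adjusted p = 0.70). Calb2, calretinin, which granule neurons express as well, stood at 845, 421 and 552 CPM in libraries labelled Slc7a5-KO and at 237, 292 and 262 CPM in WT libraries (log2 fold change 1.20 ± 0.21, SE, edgeR adjusted p = 0.068). The 2 genes thus lay apart in opposite directions. Of the other two, named with their values in view, Eomes had a log2 fold change of -0.22 ± 0.28 and Grp one of -0.23 ± 0.46.

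No gene of the remaining cell type lists was called by edgeR. Granule neuron markers had a median of -0.17 over 10 genes, with 3 above 0 and 7 below, and their summed level was 3949 to 6588 CPM in libraries labelled Slc7a5-KO and 4347 to 6342 CPM in WT libraries. Interneuron markers had a median of 0.04 over 7 genes and oligodendrocyte markers 0.0003 over 7. Meningeal fibroblast and mural markers had -0.13 over 7 genes, forebrain neuron markers 0.53 over the 4 tested and choroid plexus markers -0.67 over 7. The genes with the smallest p on these lists did not pass. Gabra6 of the granule neurons had -0.54 ± 0.26, and Nxph1 and Grm2 of the interneurons had 0.44 ± 0.20 and 0.36 ± 0.20. Camk2a, a kinase abundant in forebrain neurons, had 0.67 ± 0.17 (SE, edgeR adjusted p = 0.29). Pdgfrb of pericytes had 0.43 ± 0.21 and Lum of fibroblasts -0.87 ± 0.43, while Mal of oligodendrocytes had -0.23 ± 0.16. Slc17a6 of the nuclei and brainstem list had 0.28 ± 0.15, Hoxa5 and Hoxb5 -2.62 ± 1.54 and -1.83 ± 1.23, and Kcne2 and Folr1 of choroid plexus -1.48 ± 1.47 and -1.12 ± 1.11.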

How the data were processed

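Per the submitters' processing notes, reads were aligned with STAR 2.5.4 to GRCm38 (mm10), and R 3.2.4 and DESeq2 1.10.1 were used. The release of the annotation counted is not given in these sources. The authors deposited unnormalised read counts per gene for each strand, and the reverse-strand count, with 94.8% to 95.8% of stranded gene reads, was used. Reads outside single genes were 19.5% to 22.2% and were left out, and multimapping reads are listed as 0. Libraries came from total RNA with a strand-keeping mRNA kit, per the labels' protocols. The authors' deposited table of their comparison holds, per the file headers, a mean normalised count (signal), log2 fold changes, a Wald score, a p-value and an adjusted p-value.

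Gene symbols were matched for 46488 of 46983 identifiers, and lengths and positions come from GENCODE M21 on GRCm38, whose exon models may differ from those counted. Genes were filtered with filterByExpr (minimum count 10, total 15), scaled by TMM, and tested 2-sided with the robust quasi-likelihood test of edgeR 4.0.16 (R 4.3.3) at a Benjamini-Hochberg false discovery rate of 0.05. Log2 CPM used a prior count of 2. DESeq2 1.42.0 and limma 3.58.1 (voom) were alternatives, with other scalings, no filter, both strands, a replicate block, a sex term and each library left out. On simulated data edgeR called 19.4% of genes changed 1.5-fold, 50.7% changed 2-fold and 92.4% changed 4-fold among 16851.

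The members and gene lists were chosen with earlier results of these data known. Named are the 7 members, all genes of the family and stripe-linked lists, and of each other list the genes past the threshold or else the 2 with the smallest p, together with the 2 genes nearest to each member in pattern, except a few genes that are not reported here. Pcp2 and Gabra6 serve as checks of tissue, and Slc7a5 is given as the gene named in the labels. Counts carry no molecular identifiers, so they may include PCR copies.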

Additional observations from a re-analysis of the deposited data

How the results depend on the processing

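None of the 7 stripe genes passed the threshold under any of the 14 alternative fits, and the log2 fold changes kept their sign in all 14 except for Gabbr2, which took values of -0.00044 to 0.032 over the fits that drop a library. The median of all genes moved by less than 0.02 between scalings. The count over all genes was 8, against 71 with no filter on low counts, 46 by DESeq2, 16 with a sex term and 3 to 20 when 1 library was left out. The number of stripe genes apart between the groups was 1, and 1 to 4 when 1 library was left out, with 4 (Aldoc, Plcb3, Gabbr2 and Ebf2) without WT replicate 2. With no library left out, 11.5% of all genes tested were apart. That share was not computed with 1 library left out, where smaller groups come apart more easily, so the higher counts cannot be read as a result about these genes. Plcb3 was apart in all 9 alternatives that give this count, with log2 fold changes of -0.63 to -0.50 and edgeR adjusted p of 0.34 to 1 when 1 library was left out. The group difference in zebrin balance stayed below 0, from -0.54 to -0.30, but without Ebf2 (-0.30) the groups overlapped on it. Relative to Purkinje markers, Aldoc was -0.12 against Pcp2 alone, -0.082 without the 5 markers of smallest p, -0.22 against glial markers (chosen after seeing the data) and -0.17 to 0.21 when 1 library was left out. On that scale Slc1a6 was 0.00064 with both strands counted and -0.096 to 0.14 when 1 library was left out, and Kctd12 was -0.45 to 0.0077. When 1 library was left out Plcb3 ranged from -0.36 to -0.12, Gabbr2 from 0.23 to 0.50, Plcb4 from 0.21 to 0.38 and Ebf2 from 0.45 to 0.73. Against Pcp2 alone these 4 genes were at -0.38, 0.21, 0.13 and 0.42, and without the 5 markers of smallest p at -0.34, 0.25, 0.17 and 0.46, where the groups of Ebf2 overlapped. With replicate numbers as a block, 6 genes and 0 stripe genes passed. Same-numbered animals did not deviate together (correlations of -0.038, -0.059 and -0.027). No pairing by number was thus seen, though such correlations cannot exclude it. With 3 animals per group and a biological coefficient of variation of 31.6%, edgeR called 19.4% of simulated 1.5-fold changes, and Ebf2 rested on the fewest reads.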
